A study of Drosophila melanogaster with 6 samples.

Results

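The 10 genes described here encode enzymes that remove superoxide and peroxides, or that supply the thioredoxin and glutathione on which this removal depends, and they were chosen by name from the 17545 genes of the count tables. All 10 were detected in all 6 libraries, with at least 992 counts each, and all 10 were among the 12048 genes tested. Head RNA was sequenced from 5-day-old female flies of 2 groups with 3 biological replicates each, every replicate being a pool of heads. The mothers of ND flies had been fed normal food with 10% sucrose from egg to adulthood, and the mothers of HSD-F1 flies a diet with 20% sucrose over the same stages. HSD-F1 flies were themselves returned to normal food as fresh embryos, so that the groups differed in ancestral diet. The labels name the diet of the mother, and the study describes flies raised on the sugar-rich diet being mated for the next generation, so that the diet of the father may have differed as well. Both groups carried the genotype labelled W+VDRC and were of the same age. The comparison asks which genes are expressed at another level in the heads of offspring after ancestral exposure to the sugar-rich diet.

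Superoxide is formed mainly by mitochondrial respiration, and superoxide dismutases turn it into hydrogen peroxide. Hydrogen peroxide is then broken down by catalase, or reduced by peroxiredoxins and by a glutathione peroxidase homolog that in flies draws on thioredoxin. *Drosophila* has no glutathione reductase, and thioredoxin reductase keeps both the thioredoxin and the glutathione pool reduced. Heads contain brain, eyes, fat body and muscle, tissues in which these enzymes are broadly expressed.

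The libraries held from 20266352 counts in HSD-F1 replicate 1 to 26190694 counts in HSD-F1 replicate 2, and the 10 most abundant genes took 15.7% to 18.7% of the counts of a library. Head markers were present in every library, with 19550 to 28630 CPM of the rhodopsin gene *ninaE* and 70.8 to 98.5 CPM of the neuronal gene *elav*. CPM is the usual read count normalised to library size, here with library totals scaled by the trimmed mean of M-values (TMM). The 5 male genes that were checked summed to at most 0.342 CPM. The 13 ovary and egg genes summed to 61.3 CPM in ND replicate 3 and 13.1 CPM in HSD-F1 replicate 3, against 2.23 to 2.81 CPM in the other 4 libraries.

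None of the 10 antioxidant genes passed a test for a difference between HSD-F1 and ND heads. With edgeR's quasi-likelihood test, 0 members had a Benjamini-Hochberg adjusted p-value under 0.05 and 0 had an unadjusted p-value under 0.05, against 0.0664% and 5.07% of all genes tested, and DESeq2 and limma-voom also called 0 members at either threshold. When a 1.5-fold change was required beside an unadjusted p-value under 0.05, 1.81% of all genes were called, 1.14% as higher and 0.672% as lower, and 0 members in either direction. Log2 fold changes of HSD-F1 against ND lay between -0.15 for *Cat* and 0.13 for *PHGPx*. Their median was -0.03, that of all genes was -0.0026 and that of the 2445 tested genes with a mean CPM in the range of the members was -0.03, and 3 members had a value above 0, compared with 49.4% of all genes.

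The intervals show how large a change could have gone unseen. For 9 of the 10 genes the 95% interval of the log2 fold change lay within a 1.5-fold change in either direction, which was so for 61.9% of all genes tested and for 92.0% of those genes of similar abundance. The exception was *Gclm*, whose interval of -0.68 to 0.61 corresponds to 0.622 to 1.53 times the ND level. Between 8 and 10 members lay within these limits under the 14 alternatives, as *Sod3* also passed them without ND replicate 1, HSD-F1 replicate 2 or HSD-F1 replicate 3, and *Gclm* lay inside with DESeq2 and with replicates 1 and 2 of each group only, among others. The direction of most of these small differences rested on single libraries. With all 6 libraries retained, the sign of all 10 members was kept under 7 other settings of scaling, filter, test and model, whereas only *Cat* and *Sod1* also kept it on leaving out single libraries, and *Sod1* did not with replicates 1 and 2 of each group only (-0.05).

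**Figure D1:**
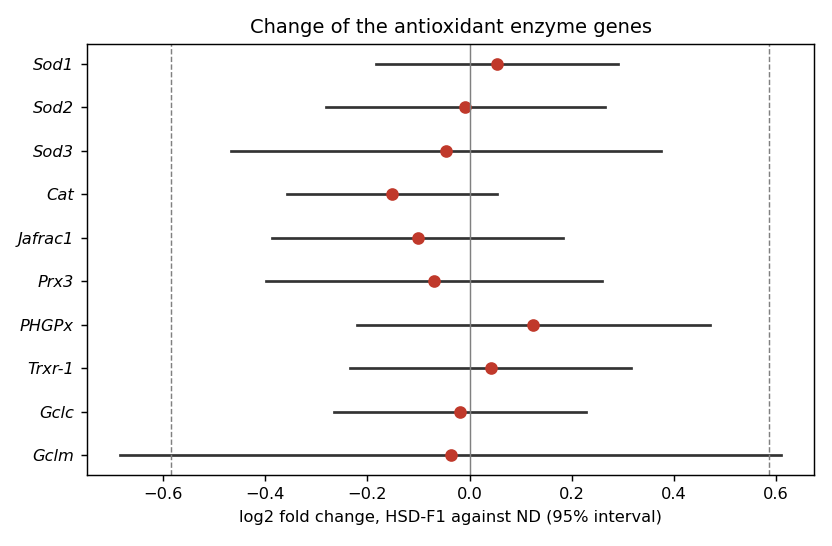
Log2 fold change of HSD-F1 against ND for each of the 10 genes (points) with its 95% interval from edgeR's quasi-likelihood fit (lines); dashed lines mark a 1.5-fold change in either direction. All 10 intervals include 0, and only that of *Gclm* (-0.68 to 0.61) passes the dashed lines.

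The members differed far more from each other than between the groups. Levels are compared as CPM per kilobase of exonic length. *Sod1* had the highest level, 449 CPM per kilobase on average over the 6 libraries, followed by *Cat* with 248, *Jafrac1* with 203, *Sod2* with 156, *Prx3* with 109, *PHGPx* with 98.6, *Sod3* with 90.2, *Trxr-1* with 58.4, *Gclm* with 42.4 and *Gclc* with 23.6. The ranges over the 6 libraries were separate between *Sod1* and *Cat*, between *Cat* and *Jafrac1* and between *Gclm* and *Gclc*, while each of the other 6 neighbours in this order overlapped. All members belonged to the upper part of the tested genes, from the 77.1st percentile for *Gclc* to the 98.4th percentile for *Sod1*. The 2 highest genes encode the cytosolic superoxide dismutase and the peroxisomal catalase, and the subunits that make glutathione had the lowest transcript levels per length.

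**Figure D2:**
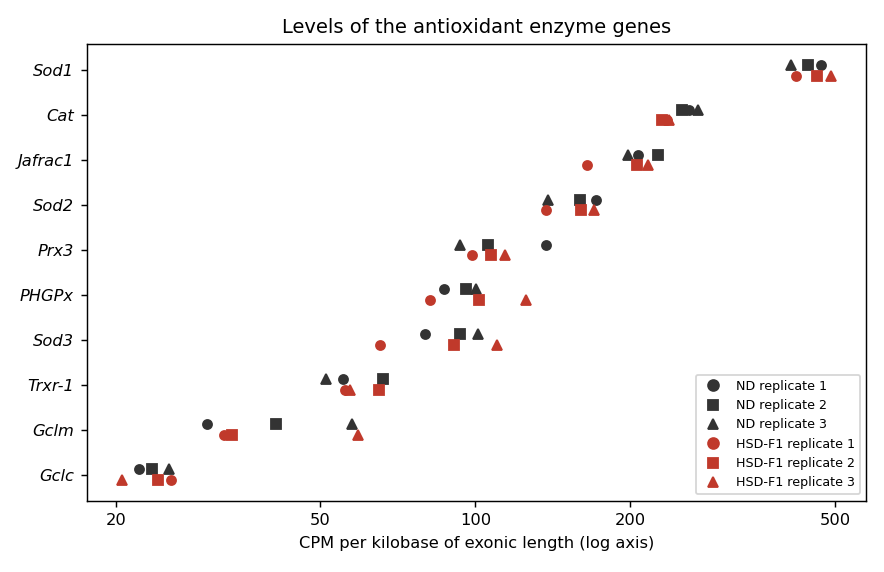
CPM per kilobase of exonic length (log axis) of each gene in each of the 6 libraries, ordered by the mean, with ND in black and HSD-F1 in red and a marker shape for each replicate. *Sod1* lies between 410 and 491, *Gclc* between 20.6 and 25.6, and the colours are intermixed for every gene except *Cat*.

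Superoxide dismutases were measured first. *Sod1*, the copper and zinc enzyme of the cytosol, is listed as Dmel_CG11793 and lies on chromosome 3L of Release 6 (dm6) from 11112281 to 11113740 on the minus strand, with 2 exons and 1 annotated transcript for a protein of 153 amino acids. ND replicates 1, 2 and 3 had 345, 325 and 302 CPM of *Sod1*, and HSD-F1 replicates 1, 2 and 3 had 309, 339 and 361 CPM, the order of replicates in which all triplets of values are given. The groups overlapped, with the highest value in HSD-F1 replicate 3 and the lowest in ND replicate 3. The ND mean was 324 ± 21.7 CPM and the HSD-F1 mean 336 ± 25.9 CPM (SD, n = 3 each). The log2 fold change of *Sod1* was 0.05 (standard error, SE, 0.10, 95% interval -0.18 to 0.29, adjusted p = 0.976 in edgeR).

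*Sod2*, the manganese enzyme of the mitochondrial matrix (Dmel_CG8905, chromosome 2R, 16772785 to 16773915, minus strand), had 174, 162 and 141 CPM among ND flies, whereas HSD-F1 flies gave 139, 163 and 172.5 CPM. Its means were almost equal, 159 ± 16.9 and 158 ± 17.3 CPM (SD, n = 3 each), with a log2 fold change of -0.0080 (SE 0.12, 95% interval -0.28 to 0.27). Within each group *Sod2* and *Sod1* put the libraries in the same order, with ND replicate 1 and HSD-F1 replicate 3 highest and ND replicate 3 and HSD-F1 replicate 1 lowest. The level of *Sod2* relative to *Sod1*, per kilobase, was accordingly narrow, 0.355 ± 0.0148 in ND and 0.340 ± 0.0128 in HSD-F1 (SD, n = 3 each), and the groups overlapped.

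*Sod3*, the extracellular copper and zinc enzyme (Dmel_CG9027, chromosome 2R, 11380347 to 11384114, minus strand), followed another order. It had 161, 189 and 205 CPM among ND flies, whereas HSD-F1 flies gave 132, 183 and 222 CPM, so that both replicate 3 libraries were above the other 4. The means were 185 ± 22.1 and 179 ± 45.4 CPM (SD, n = 3 each), and the log2 fold change was -0.05 (SE 0.18, 95% interval -0.47 to 0.37). Its sign turned without ND replicate 3, to 0.03, and without HSD-F1 replicate 1, to 0.13, and without HSD-F1 replicate 3 the value was -0.23. The annotation gives *Sod3* 5 transcripts with 3 coding forms, of 181 to 243 amino acids, which a count per gene does not separate.

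**Figure D3:**
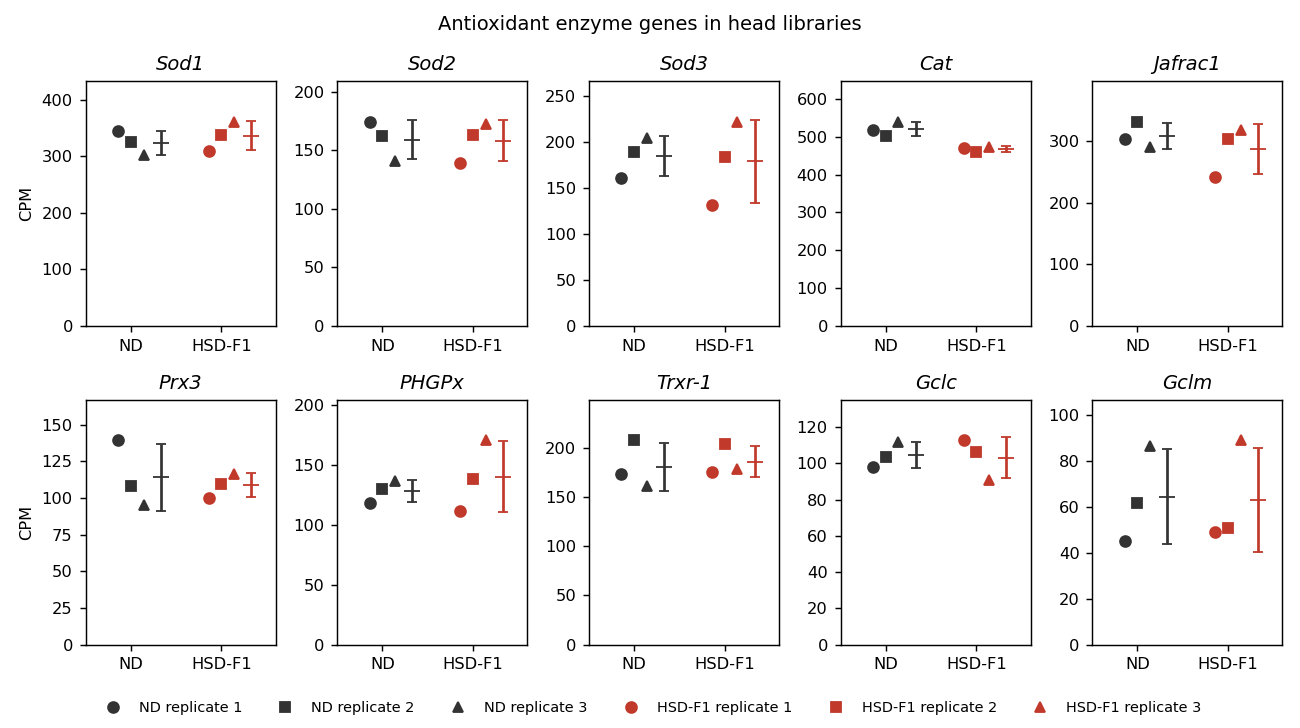
CPM of each gene in each library, with ND in black and HSD-F1 in red, a marker shape for each replicate, and the mean with SD of 3 replicates beside the points; every axis starts at 0. The groups overlap for 9 genes, and for *Cat* the HSD-F1 libraries sit between 459.9 and 473 CPM, below the ND libraries at 502 to 539 CPM.

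Among the peroxide-removing enzymes, *Cat* was the one member whose groups did not overlap. *Cat* encodes the peroxisomal catalase, which splits hydrogen peroxide into water and oxygen without a reducing partner (Dmel_CG6871, chromosome 3L, 18822604 to 18828188, plus strand, 3 exons, 506 amino acids). It was at 518, 502 and 539 CPM among ND flies and at 470.0, 459.9 and 473 CPM among HSD-F1 flies. Each HSD-F1 library was below each ND library, with means of 519.5 ± 18.8 and 468 ± 7.0 CPM (SD, n = 3 each). The log2 fold change was -0.15 (SE 0.09, 95% interval -0.36 to 0.05). It did not pass the test (adjusted p = 0.911 in edgeR). Permuting the libraries exactly, two-sided, p = 0.1 was obtained, the smallest value that 3 libraries against 3 can give. Groups that did not overlap with HSD-F1 lower were found for 5.17% of all genes tested and for 7.36% of the genes of similar abundance, against 1 of the 10 members, and with HSD-F1 higher for 6.67% of all genes and 0 members. In whole heads, fewer cells that express a gene cannot be told apart from less RNA in each cell. Markers of head cell types were compared in the same fit. All 7 head fat body genes had a log2 fold change below 0, with a median of -0.12, while their sums overlapped at 65320 to 80480 CPM among ND flies and 64180 to 82320 CPM among HSD-F1 flies. The takeout gene *to*, named after its values were seen, was the 1 of them with an unadjusted p-value under 0.05 (log2 fold change -0.68, SE 0.24). *Yp1* or *Yp2*, or both, were above 0 without ND replicate 1, ND replicate 3, HSD-F1 replicate 2 or HSD-F1 replicate 3. The 5 neuron genes summed to 2979 to 3012 CPM among ND flies and 3063 to 3426 CPM among HSD-F1 flies, without overlap, but 2 of them, *Syt1* and *brp*, were below 0. *para*, named after its values were seen, was at 0.34 (SE 0.11, unadjusted p = 0.0145 and adjusted p = 0.911 in edgeR). *para* and *nSyb* had separate groups with HSD-F1 higher, against 6.67% of all genes tested. The part of either cell type in the *Cat* values was not tested.

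The *Cat* values varied less between replicates than those of any other member. The coefficient of variation within groups was 2.76%, and 2.1% of the genes of similar abundance had a lower one. The biological coefficient of variation that edgeR estimates with the help of other genes was 0.119 for *Cat*, so that its SE does not rest on these 6 values alone. The groups were also separate when counts were divided by the library total alone, at 509.7 to 553 CPM in ND and 458 to 470.1 CPM in HSD-F1. Over 14 alternatives the log2 fold change of *Cat* stayed between -0.18 and -0.13, with the unadjusted p-value from 0.0931 with DESeq2 to 0.290.

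*Jafrac1*, listed in RefSeq as *Prx2*, encodes the abundant cytosolic peroxiredoxin that is recycled by thioredoxin (Dmel_CG1633, chromosome X, 13329824 to 13331994, plus strand). It had 303, 331 and 289.9 CPM among ND flies, whereas HSD-F1 flies gave 241, 302 and 317 CPM. Only HSD-F1 replicate 1 was below all ND libraries, and the means were 308 ± 20.9 and 287 ± 40.5 CPM (SD, n = 3 each). The log2 fold change was -0.10 (SE 0.12, 95% interval -0.39 to 0.18), and without HSD-F1 replicate 1 it was 0.0094.

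*Prx3*, the peroxiredoxin of mitochondria (Dmel_CG5826, chromosome 3R, 17545222 to 17546531, minus strand), had 139, 108 and 94.9 CPM among ND flies, whereas HSD-F1 flies gave 100.2, 109 and 116 CPM. The ND values enclosed the HSD-F1 values, because ND replicate 1 was the highest and ND replicate 3 the lowest of all 6 libraries. The means were 114 ± 22.8 and 109 ± 8.06 CPM (SD, n = 3 each), and the log2 fold change was -0.07 (SE 0.14, 95% interval -0.40 to 0.26). Leaving out ND replicate 1 gave 0.10. Per kilobase, *Prx3* stood at 0.534 ± 0.110 of *Jafrac1* in ND and at 0.549 ± 0.0434 in HSD-F1 (SD, n = 3 each), with overlapping groups.

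*PHGPx*, the glutathione peroxidase homolog listed in RefSeq as *Gtpx* (Dmel_CG12013, chromosome 3L, 3326265 to 3328626, plus strand), had the largest positive log2 fold change of the members, 0.13 (SE 0.15, 95% interval -0.22 to 0.47). Its values were 118, 130.1 and 136 CPM among ND flies and 111, 138 and 170.3 CPM among HSD-F1 flies, or 128 ± 9.19 and 139.9 ± 29.7 CPM (SD, n = 3 each). The HSD-F1 values enclosed the ND values, and HSD-F1 replicate 3 set the direction, as the log2 fold change was -0.04 without it and 0.27 without HSD-F1 replicate 1. The gene *Strip* on the opposite strand overlaps the span of *PHGPx* but shares 0 exonic bases with it.

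*Trxr-1* encodes the thioredoxin reductase, which passes electrons from NADPH to thioredoxin (Dmel_CG2151, chromosome X, 8242528 to 8248033, plus strand). It had 174, 208 and 161 CPM among ND flies, whereas HSD-F1 flies gave 176, 204 and 179 CPM. Replicate 2 was the highest library of *Trxr-1* in both groups, and the means of 181 ± 24.2 and 186 ± 15.5 CPM (SD, n = 3 each) differed by less than either SD. The log2 fold change was 0.04 (SE 0.12, 95% interval -0.23 to 0.32). The annotation lists 4 transcripts with 4 coding forms of 491 to 596 amino acids, among them cytosolic and mitochondrial forms, and the count is their sum. *Trxr-1* shares 435 exonic bases with *sni* on the opposite strand, and since the use of strand in counting is not given in the sources used here, reads from these bases cannot be assigned. The counts of *sni* were 357 to 604 per library, against 3563 to 5479 for *Trxr-1*.

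Glutamate-cysteine ligase carries out the rate-limiting step of glutathione synthesis, and its subunits differed in how much they varied. *Gclc*, the catalytic subunit (Dmel_CG2259, chromosome X, 8102181 to 8116147, minus strand), lies 126.4 kb from *Trxr-1* on the same chromosome. Its values were 97.9, 104 and 112 CPM among ND flies and 113, 106 and 90.5 CPM among HSD-F1 flies. Its means were 104 ± 7.07 and 103 ± 11.4 CPM (SD, n = 3 each), with a log2 fold change of -0.02 (SE 0.11, 95% interval -0.26 to 0.23).

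*Gclm*, the modifier subunit that raises the efficiency of the catalytic one (Dmel_CG4919, chromosome 3R, 22685006 to 22686510, minus strand, a single exon), had 45.3, 61.8 and 86.7 CPM among ND flies, whereas HSD-F1 flies gave 48.9, 50.7 and 89.1 CPM. The replicate 3 libraries were the highest of both groups and were nearly equal, as were the means of 64.6 ± 20.9 and 62.9 ± 22.7 CPM (SD, n = 3 each). The coefficient of variation within groups was 34.2%, higher than in 98.8% of the genes of similar abundance. The log2 fold change of *Gclm* was -0.04 (SE 0.28), and it moved between -0.37 without HSD-F1 replicate 3 and 0.23 without ND replicate 3. Per kilobase, *Gclm* was at 1.35, 1.74 and 2.27 times *Gclc* in ND and at 1.27, 1.4 and 2.88 times in HSD-F1. Among ND flies both subunits were highest in replicate 3. Among HSD-F1 flies, replicate 3 had the highest *Gclm* and the lowest *Gclc*.

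Both replicate 3 libraries exceeded the other 4 in 2 of the 10 members, *Gclm* and *Sod3*, as they did in 7.73% of all genes tested, and were below the other 4 in 0 members and in 6.91% of all genes. The labels do not say whether libraries with the same replicate number belong together. The mean CPM of the replicate 3 libraries over that of the other 4 was 1.70 for *Gclm*, 1.28 for *Sod3* and 1.23 for *PHGPx*, and between 0.894 and 1.04 for the other 7 members. The sum of the ovary and egg genes was highest in the same libraries. It was far larger in ND replicate 3 than in HSD-F1 replicate 3, whereas *Gclm* was at 86.7 and 89.1 CPM. Most of this sum came from *Cp36* (25.7 and 4.83 CPM), *Cp38* (21.1 and 4.01 CPM) and *dec* (8.72 and 1.14 CPM). Not every gene of the list followed it. *Vml* was highest in ND replicate 1 (0.28 CPM), and *osk* was at 0.039 CPM in HSD-F1 replicate 3 and 0.115 CPM in HSD-F1 replicate 2. The part of ovary or egg RNA in the level of *Gclm* was not tested.

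HSD-F1 replicate 1, the library with the fewest counts, was the lowest of its group in 8 of the 10 members, and HSD-F1 replicate 3 the highest in 8. How often these libraries held these places among all genes tested was not counted, so this order may not be particular to the members. The members summed to 1839 CPM in HSD-F1 replicate 1 and to 2192 CPM in HSD-F1 replicate 3, while the ND libraries lay between at 2067 to 2120 CPM. The 6 photoreceptor genes had their lowest sum in HSD-F1 replicate 1, 33530 CPM against 37630 to 44180 CPM elsewhere. *ninaE*, *trp*, *norpA* and *Arr1* were lowest there, but *inaD* and *Arr2* were lowest in ND replicate 3. The 7 head fat body genes had their highest sum in HSD-F1 replicate 1, 82320 CPM against 64180 to 80480 CPM. Of these, *Yp2* and *apolpp* were highest there. *Yp1* and *Lsp2* peaked in ND replicate 3, and *Yp3*, *Mtp* and *to* in ND replicate 1. The part of either cell type in the member values was not tested. Without HSD-F1 replicate 1, 7 members instead of 3 had a log2 fold change above 0, and 0 had an unadjusted p-value under 0.05 in the edgeR test.

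**Figure D4:**
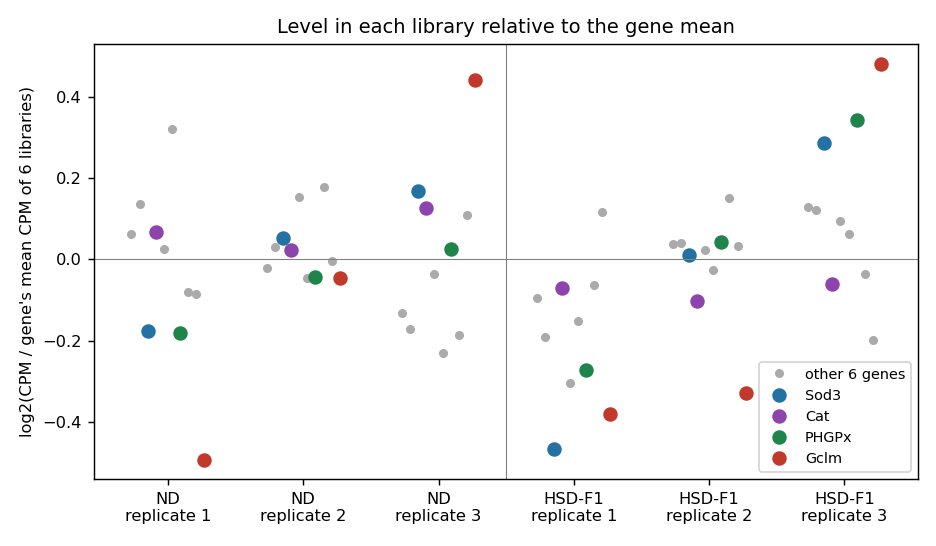
Level of each gene in each library as log2 of its CPM over its mean CPM of the 6 libraries, with *Gclm*, *Sod3*, *PHGPx* and *Cat* in colour and the other 6 genes in grey. *Gclm* reaches 0.44 and 0.48 in the replicate 3 libraries, and the HSD-F1 replicate 1 values are mostly below 0, with a median of -0.17.

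The 95 other genes of the same pathways, in 7 lists, were compared in the same fit, and 88 of them had enough counts to be tested. With edgeR's quasi-likelihood test, 0 of these had an adjusted p-value under 0.05, and 2 were higher and 0 lower at an unadjusted p-value under 0.05, against 2.91% higher and 2.16% lower among all genes. Their median log2 fold change was -0.02.

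Of 7 relatives and sources of superoxide and peroxide, 0 passed the unadjusted test in either direction. *Irc*, a secreted immune-regulated catalase, was the most abundant of them per kilobase, at 267 to 333 CPM among ND flies and 272 to 409 CPM among HSD-F1 flies, with a log2 fold change of 0.24 (SE 0.16). *Ccs*, the copper chaperone of *Sod1*, was at 0.13 (SE 0.12) and *Sodq* at -0.28 (SE 0.17), values that are log2 fold changes as well.

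In the thioredoxin and peroxiredoxin list, 10 of 12 genes were tested and 0 passed. *Trx2*, the main thioredoxin, had 186 to 228 CPM among ND flies and 178 to 244 CPM among HSD-F1 flies, with a log2 fold change of 0.0049 (SE 0.14). The thioredoxin-like gene *Txl* was at 0.08 (SE 0.12) and *Prx6c* at -0.16 (SE 0.44), and *Prx6c* has close copies in *Prx6b* and *CG12896* between which reads could have been divided. *Prx5*, a further peroxiredoxin, had 0 counts in every library. Its exons on chromosome 3R (18165442 to 18167273) are identical to those of *CG7215* over all 1449 bases, and *CG7215* also had 0 counts, so that the tables give no level for *Prx5*. The thioredoxin of the female germline, *dhd*, named here after its values were seen, had 252 counts in ND replicate 3 and 10 to 41 in the other libraries. Its log2 fold change of -1.84 (SE 1.13) became 1.31 (SE 0.52) without that library, in which the sum of the ovary and egg genes was also highest.

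The glutathione list held 39 tested genes out of 42, with a median log2 fold change of -0.0031 and 19 values above 0. *GstD1*, a major glutathione S-transferase of flies, was at 177, 181 and 167 CPM among ND flies and at 213, 189 and 206 CPM among HSD-F1 flies, and the groups were separate. Its log2 fold change was 0.21 (SE 0.09), with an unadjusted p-value of 0.0468 and an adjusted p = 0.911 in edgeR. *GstD4*, of the same gene cluster, had 6, 3 and 2 counts in ND and 10, 8 and 10 counts in HSD-F1, with a log2 fold change of 1.43 (SE 0.51), also without passing the adjusted test (adjusted p = 0.911, same test). Neither gene had an unadjusted p-value under 0.05 with DESeq2, and over the alternatives that tested it *GstD1* had one in 3 of 14 and *GstD4* in 8 of 13. *GstE12* at -0.09 (SE 0.11) and *GstE9* at 0.06 (SE 0.13) were the other most abundant members per kilobase.

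The 5 genes that supply NADPH, the source of electrons for thioredoxin reductase, all had a log2 fold change below 0, with a median of -0.28, and 0 passed the unadjusted test. *Men*, encoding the cytosolic malic enzyme, was at 664, 858 and 763 CPM among ND flies and at 538, 709 and 640.2 CPM among HSD-F1 flies, and these ranges overlapped (log2 fold change -0.28, SE 0.14). *Idh* was at -0.04 (SE 0.13) and *Men-b* at -0.07 (SE 0.10). The enzymes of the oxidative pentose phosphate pathway, *Zw* and *Pgd*, named after their values were seen, were at -0.29 (SE 0.18) and -0.31 (SE 0.18). The 5 genes summed to 1622 to 1766 CPM in ND and 1447 to 1556 CPM in HSD-F1, while the groups overlapped for each of the 5 genes alone. *Men* was the largest part of these sums. All 5 stayed below 0 under each scaling, while *Idh* and *Men-b* were above 0 and the median was -0.10 without ND replicate 1, and *Idh* was above 0 without HSD-F1 replicate 2, without HSD-F1 replicate 3 and with replicates 1 and 2 of each group only. The 7 head fat body genes were also all below 0 (median -0.12), and their part in the NADPH genes was not tested.

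Of 15 stress regulators, 0 passed the unadjusted test, and the median log2 fold change was 0.0092. The most abundant per kilobase were *crc*, the fly ATF4 homolog, at -0.25 (SE 0.14), *ref(2)P*, a p62 homolog, at -0.03 (SE 0.10) and *maf-S* at 0.17 (SE 0.15). *cnc*, the Nrf2 homolog that partners with *maf-S* to activate antioxidant genes, had 242 to 266 CPM among ND flies and 243 to 272 CPM among HSD-F1 flies, with a log2 fold change of 0.0092 (95% interval -0.21 to 0.22). *Keap1*, the inhibitor of *cnc*, was at 13.5 to 15.3 CPM among ND flies and at 12.3 to 13.3 CPM among HSD-F1 flies, without overlap, with a log2 fold change of -0.17 (95% interval -0.39 to 0.05). *cnc* and *Keap1* were named after their values were seen. Of the 88 related genes tested, 3 had separate groups with HSD-F1 lower, *Keap1*, *Rsod* (log2 fold change -0.32, SE 0.14) and *Ctr1A* (log2 fold change -0.08, SE 0.08), against 5.17% of all genes. Another 3 had separate groups with HSD-F1 higher, *GstD1*, *GstD4* and *GstE4* (log2 fold change 0.11, SE 0.09), against 6.67%. *Rsod*, *Ctr1A* and *GstE4* were named after their values were seen.

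The methionine sulfoxide reductases *SelR* and *MsrA*, which repair oxidized proteins, had log2 fold changes of 0.03 (SE 0.10) and -0.23 (SE 0.18). Of 12 metal-binding genes, which hold the iron and copper that drive radical formation, 10 were tested and 0 passed. The metallothionein *MtnA* was at 629.9, 721 and 811 CPM among ND flies and at 426, 899.8 and 1110 CPM among HSD-F1 flies (log2 fold change 0.17, SE 0.30), and *Tsf1*, a transferrin, and *Fer2LCH*, a ferritin subunit, had log2 fold changes of -0.16 (SE 0.16) and 0.11 (SE 0.13).

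**Figure D5:**
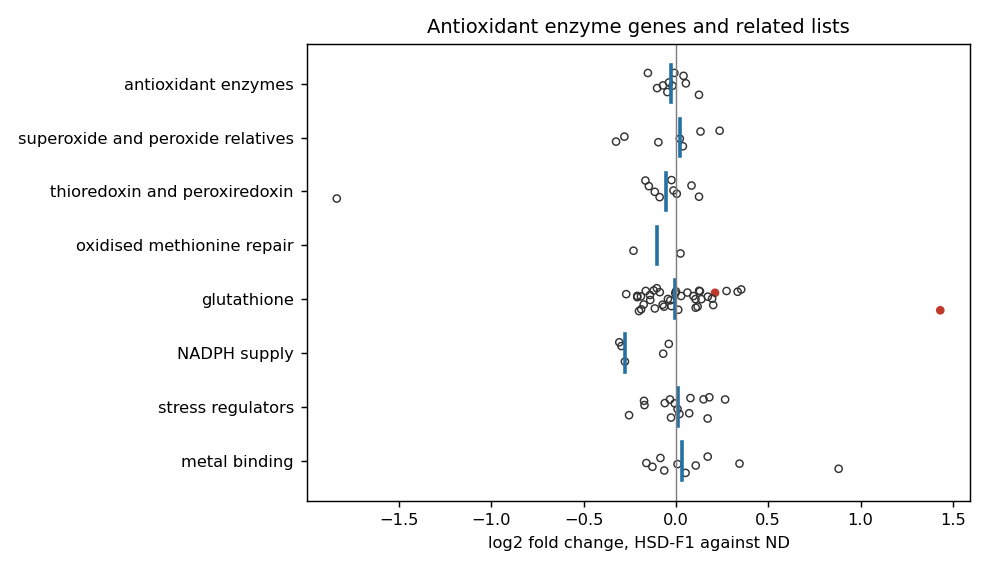
Log2 fold change of HSD-F1 against ND for the 10 antioxidant enzyme genes and the 88 tested genes of the related lists (circles), filled in red where the unadjusted p-value from edgeR's quasi-likelihood test was under 0.05, with the median of each list as a blue bar. The medians lie between -0.28 for NADPH supply and 0.03 for metal binding, and only *GstD1* and *GstD4* are filled.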

How the data were processed

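The authors deposited 1 table per library with whole-number counts of reads on each gene, without normalization. According to the study's methods, paired-end reads were mapped to the *Drosophila* genome and uniquely mapped reads were kept. The submitters' processing notes name HISAT2 2.0.4, Bowtie2 2.2.5, RSEM 1.2.12 and DESeq2 1.4.5. The counting program and the use of strand are not given in the sources used here. The labels give the genotype as W+VDRC, the paper describes its wild-type flies by another name, and the strain was not settled here. The labels name no batch.

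Genes whose counts summed to 10 or more were scaled with TMM and tested with edgeR 4.0.16 (R 4.3.3, glmQLFit, glmQLFTest) in a model of group alone, with p-values adjusted over the 12048 genes. Standard errors were taken from the log2 fold change and the F statistic. The models were tested on simulated counts. Alternatives used DESeq2 1.42.0, limma 3.58.1 (voom), other scaling and filters, a replicate term and each library left out; a fit of replicates 1 and 2 only was added after seeing the data.

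Locus tags were matched to RefSeq symbols for 17504 of 17545 genes, and 17487 had the same start and end. Transcripts were taken from the Ensembl BDGP6 annotation. Of 144 listed pathway and marker symbols 143 were matched, giving 142 genes. The members and the lists were chosen with earlier results of these data known. Of a pathway list, genes with an unadjusted p-value under 0.05 and up to 3 of the most abundant per kilobase were named, and of a marker list up to 2. *elav*, *brp*, *para*, *trp*, *norpA*, *inaD*, *Arr1*, *apolpp*, *Lsp2*, *Mtp*, *to*, *Yp1*, *dec*, *osk* and *Vml* are named outside this rule. Replicates are described as biological, and p-values measure the spread between 3 pools per group. CPM of 3 counts was 0.114 to 0.148, far below any member.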

Additional observations from a re-analysis of the deposited data

How the results depend on the processing

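Each of 14 alternatives gave 0 members with an adjusted and 0 with an unadjusted p-value under 0.05, with or without a fold threshold. The number of members with a log2 fold change above 0 was 3 with all libraries, between 3 and 7 on leaving out 1 library (7 without HSD-F1 replicate 1) and 2 with replicates 1 and 2 of each group only. No alternative gave a related gene an adjusted p-value under 0.05. At the unadjusted threshold 2 were higher and 0 lower; with DESeq2 size factors, with library size only and without a low-count filter 1 was higher and 1 lower, with at least 10 counts in every library 1 was higher, and with DESeq2 0 were higher and 1 lower. On leaving out 1 library, 0 (without ND replicate 2) to 4 (without HSD-F1 replicate 2) were higher and 0 (without HSD-F1 replicate 1) to 6 (without HSD-F1 replicate 3) lower. With replicates 1 and 2 of each group only, 4 were lower, and the cause of these shifts was not tested. With the replicate number as a block, 4 related genes were lower and the number of all genes with an adjusted p-value under 0.05 went from 8 to 38, against 28 with DESeq2, 21 without ND replicate 3, 18 with replicates 1 and 2 only and 4 without ND replicate 1. The block also narrowed the 95% interval of *Gclm* to -0.30 to 0.21. With the 1.5-fold threshold, 218 of all genes were called, 140 with DESeq2 and 119 with at least 10 counts in every library. Same-numbered libraries correlated in their deviations from the group means at 0.245, 0.008 and 0.279. ND replicates 1 and 3 each correlated best with the HSD-F1 library of their own number, and ND replicate 2 with HSD-F1 replicate 1, at 0.037. Whether same-numbered libraries were handled together is not given in the labels and was not tested. The members had 992 or more counts in each library, and the spread between libraries was widest for *Gclm*. With 3 libraries a group, an exact permutation test cannot give a p-value below 0.1.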
